A study of Mus musculus with 9 samples.

Results

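The 35 genes described here encode enzymes of glycolysis and of the pentose phosphate pathway, with the fructose 2,6-bisphosphate enzymes, pyruvate dehydrogenase and 2 of its kinases, and 3 enzymes of glycogen use. They were taken from a fixed list of gene symbols, and all 35 were among the 22178 symbols of the expression table. RNA-seq was available for 3 groups of mouse B cells, each with 3 libraries, on a backcrossed C57BL/6 background. B2 cells, the conventional B cells, came from spleen under the strain label VH12B1-8/Vk4. B1 cells, an innate-like class that renews itself in body cavities, were peritoneal, under the strain label B1-8VH12/Vk4. B2B1 cells came from the peritoneal cavity under that same label, with a switch of the B cell receptor (BCR) induced about 30 days before isolation. The strain labels of all groups name VH12, B1-8 and Vk4, VH12 with Vk4 being a receptor of the B-1 type and B1-8 one of the conventional type. The sources used here give no ages, no sorting gates and no agent for the switch. Tissue and strain label differ together with cell type in both comparisons with B2, so these cannot be told apart there. No label ties libraries to separate mice, and p-values therefore measure the spread between these samples alone. That spread may be technical in part, and in B1 in full. In bulk RNA, fewer cells of a type and less RNA per cell cannot be told apart.

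Glycolysis splits glucose into pyruvate in the cytosol and yields ATP and NADH. Hexokinase, phosphofructokinase and pyruvate kinase catalyse its irreversible steps, and lactate dehydrogenase returns NADH to NAD while making lactate. The pentose phosphate pathway leaves at glucose 6-phosphate: its oxidative branch makes NADPH, and its non-oxidative branch interconverts ribose phosphate and glycolytic intermediates. Pyruvate dehydrogenase converts pyruvate inside mitochondria and is switched off by pyruvate dehydrogenase kinases. B cells raise glucose uptake and glycolysis when they are activated, and self-renewing peritoneal B1 cells are known for an active glucose metabolism.

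Values are TPM, a unit that divides out gene length and library size, so that levels of different enzymes can be compared. TPM keep no counts, so the sequencing depth is unknown, and the sum over all listed genes was 894515 to 943043 TPM per library. The markers of B cells summed to 20000 to 27800 TPM in every library. T cell markers (7 of 8 in the table) summed to 13.4 to 16.0 TPM in B2, 26.3 to 32.7 in B1 and 21.7 to 26.8 in B2B1. Of these, Cd3e was at or below 0.0837 TPM in every library and Cd3d between 1.93 and 8.32, while Cd3g was at 10.7, 6.62 and 6.12 TPM in B1 and at or below 0.511 elsewhere. Lck stood at 6.43 to 7.04 TPM in B2, 9.56 to 14.4 in B1 and 15.9 to 19.8 in B2B1. Macrophage markers (11 of 12 in the table) summed to 3.64 to 5.27 TPM in B2, 123 to 168 in B1 and 157 to 384 in B2B1. Itgam and Emr1 made up most of that sum outside B2B1 library 1, where Lyz2 stood at 181 TPM with C1qa, C1qb and C1qc at 7.77, 11.7 and 8.69 TPM. These 3 complement genes were at or below 0.421 TPM in B2, 0.0697 to 2.25 in B1 and 1.43 to 4.39 in B2B1 libraries 2 and 3, and the macrophage receptor Csf1r was at or below 2.13 TPM throughout. Of 6 tested macrophage markers, 2 were called higher in B1 and 6 in B2B1 against B2, and 2 in B2B1 against B1. In B1 libraries 1 to 3, Itgam alone stood at 124, 72.8 and 119.6 TPM and Lyz2 at 1.22, 30.9 and 21.6. In B1 library 1, C1qa, C1qb, C1qc and Csf1r were at 0.0697, 0.214, 0.0713 and 0.0837 TPM. Whether Itgam and Emr1 transcripts came from macrophages or from the B cells themselves was not tested. The sum of 21 cell cycle genes was 313 to 335 TPM in B2 and 396 to 586 in B2B1. In B1 it was 293 and 300.0 in libraries 1 and 3, and 558 in library 2. Pcna, at 147 to 205 TPM, was the largest part of that sum. Of 19 tested cell cycle genes, 9 were called higher and 1 lower in B2B1 against B2 (21.0% and 42.0% of all genes). For B1 against B2 the counts were 1 and 1 (18.0% and 33.9%), and for B2B1 against B1 0 and 0 (6.93% and 12.1%). Xist exceeded the Y-linked Ddx3y in all 3 B1 libraries, in B2 libraries 1 and 3 and in B2B1 library 3 only. Ddx3y stood at 75.3 TPM in B2 library 2, at 56.9 and 61.7 in B2B1 libraries 1 and 2, and at or below 0.323 elsewhere. The B2 libraries thus did not all come from a single mouse, nor did the B2B1 libraries. Whether the B1 libraries came from separate mice was not tested. How far RNA of macrophages or T cells, cell division or the sex of the mice entered the results below was not tested beyond the values given with them.

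Of the 35 members, 32 had a mean of at least 1 TPM over the 9 libraries and were tested. Hk3, Aldoc and Ldhb were under that limit. Eno2 and Pygl passed it although one group averaged below 1 TPM, so for both a difference was built into their being tested. In B1 against B2, limma called 22 of the 32 (51.9% of all 11099 tested genes were called), 15 of them higher (18.0% of all genes) and 7 lower (33.9%). In B2B1 against B2, 24 were called (63.0% of all genes), 17 higher (21.0%) and 7 lower (42.0%). In B2B1 against B1, 14 were called (19.0% of all genes), 12 higher (6.93%) and 2 lower (12.1%). Groups did not overlap for 24 members in B1 against B2 (61.7% of all genes), 16 higher (21.9%) and 8 lower (39.8%). For B2B1 against B2 this held for 27 members (72.2% of all genes), 20 higher (24.5%) and 7 lower (47.7%), and for B2B1 against B1 for 20 (35.7%), 16 higher (12.0%) and 4 lower (23.7%). A call is a Benjamini-Hochberg adjusted p under 0.05 over all tested genes, and fold changes are differences of mean log2(TPM + 1), which understates the change of low genes.

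The median log2 fold change of the tested members was 0.23 in B1 against B2, where the median of all genes was −0.14. It was 0.47 in B2B1 against B2 (all genes −0.19) and 0.22 in B2B1 against B1 (all genes −0.056). Rescaling by median-of-ratios factors moved the median of all genes to 0.011, 0.018 and 0.0066. With that scaling 16 members were called higher and 3 lower in B1 against B2, 22 and 6 in B2B1 against B2, and 15 and 2 in B2B1 against B1, while calls over all genes in B1 against B2 went from 2003 higher and 3762 lower to 2843 and 2464. For B2B1 against B2 they went from 2332 and 4663 to 3494 and 3031, and for B2B1 against B1 from 769 and 1339 to 1087 and 894. The comparisons share the libraries of a group, so their values stand side by side without a test of likeness. Group means ran from lowest in B2 through B1 to highest in B2B1 for 20 of the 32 members (18.4% of all tested genes) and in the opposite order for 5 (40.4%).

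Several features of the libraries touch these counts. In B1 library 2, the library with the high cell cycle sum, 21 of 32 members (65.6%) had their highest B1 value, as did 41.9% of all tested genes. Without that library 14 members were called higher and 6 lower in B1 against B2 (18.1% and 35.4% of all genes), and 13 and 2 in B2B1 against B1 (9.18% and 12.8%). Only 9 of those 13 were among the 12 called higher with it. Aldoa, Tpi1 and Eno2 were lost, and Pgam1, Pgd, Pkm and Tkt were gained. Without B2B1 library 1, the library with the most macrophage transcripts, 17 were called higher and 7 lower in B2B1 against B2 (18.6% and 39.5% of all genes), and 8 and 2 in B2B1 against B1 (5.04% and 8.34%). Libraries with Xist above Ddx3y are not spread evenly over B1 and B2B1. With that class as a covariate, B2B1 against B1 had 4 higher members in place of 12, namely Hk1, Pfkp, Gapdh and Pdk3, and the same 2 lower ones, Pfkfb4 and Pygl. Calls over all genes fell as well under that covariate, from 769 higher and 1339 lower to 342 and 500 (3.08% and 4.50%). Fitted on the 6 libraries of B2B1 and B1 alone, 6 of the 12 remained, and calls over all genes were 448 higher and 681 lower (4.04% and 6.14%).

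**Figure D1:**
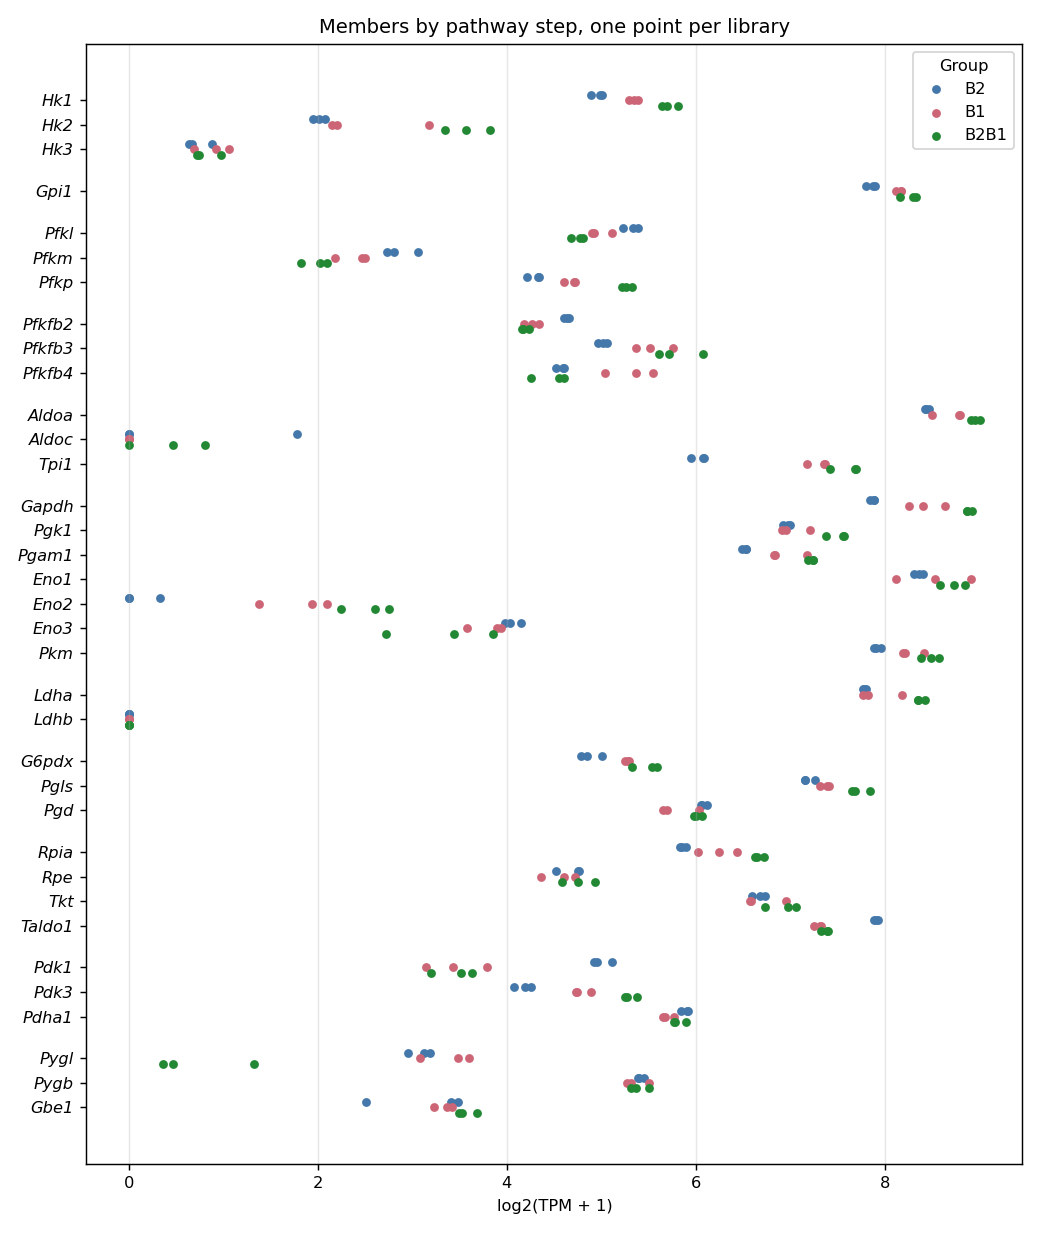
Level of each of the 35 members as log2(TPM + 1) on the horizontal axis, one point per library (3 per group), with genes ordered by pathway step. Hk1, Pfkp, Tpi1, Gapdh and Pdk3 step up from B2 through B1 to B2B1 without overlap of the groups, Pdk1 and Taldo1 are highest in B2, and Ldhb is listed at 0 in all 9 libraries.

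**Figure D2:**
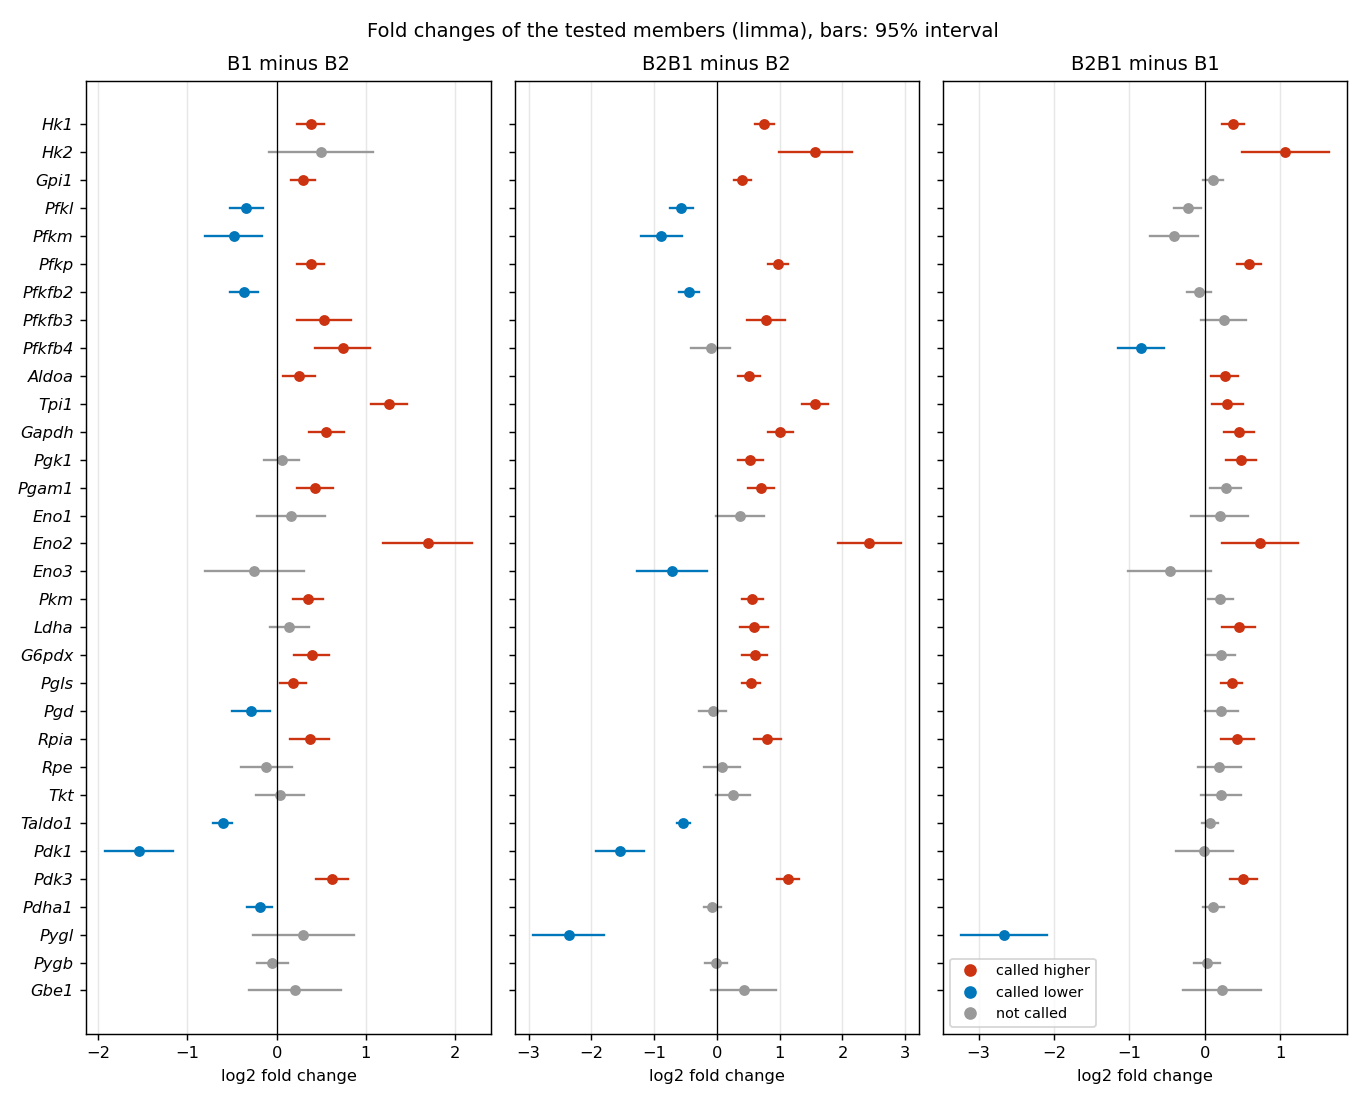
Log2 fold changes of the 32 tested members in the 3 comparisons (horizontal axis, each panel with its own range), with 95% intervals from limma as bars and calls by colour. In B2B1 against B2, 17 members lie on the higher side as calls, with Eno2 at 2.43 and Tpi1 at 1.56, and Pygl is lowest at −2.37.

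Hexokinase traps glucose in the cell as glucose 6-phosphate. Hk1, the housekeeping isozyme, was the main hexokinase of every library. It stood at 31.2, 28.8 and 30.6 TPM in B2, at 40.8, 38.3 and 39.7 in B1 and at 55.2, 50.9 and 48.8 in B2B1 (libraries 1 to 3 here and below). The 3 groups did not overlap, and Hk1 was called in each comparison. Its log2 fold change was 0.38 ± 0.067 (SE) for B1 against B2, 0.75 ± 0.067 for B2B1 against B2 and 0.37 ± 0.067 for B2B1 against B1 (limma adjusted p = 0.00132, 1.57e-05 and 0.00586).

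Hk2, the inducible isozyme that rises in activated and dividing cells, lies on chromosome 6 from 82725025 to 82774454 (GRCm38, GENCODE M21). It was at 3.22, 2.87 and 3.03 TPM in B2 and at 13.2, 9.15 and 10.9 in B2B1, a log2 fold change of 1.57 ± 0.26 (limma adjusted p = 0.000644). In B1 it was at 3.43, 8.04 and 3.62 TPM, so that B1 library 2 alone came near the B2B1 values. B1 against B2 did not pass for Hk2 (log2 fold change 0.50 ± 0.26, adjusted p = 0.133). B2B1 against B1 passed (1.07 ± 0.26, limma adjusted p = 0.0212), but not without B2B1 library 1 or 3 (0.95 and 1.07) or B1 library 1 or 3 (0.89 and 0.92), in the 6-library fit (1.07) or with the Xist covariate (1.09). Hk3, a hexokinase of myeloid cells, stayed at 0.554 to 1.09 TPM in all libraries and was not tested. Gpi1, which converts glucose 6-phosphate to fructose 6-phosphate, was at 221 to 237 TPM in B2, 277 to 288 in B1 and 284 to 321 in B2B1. It was called in both comparisons with B2 (log2 fold changes 0.30 and 0.40).

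Phosphofructokinase commits sugar to glycolysis and works as a tetramer of liver (Pfkl), muscle (Pfkm) and platelet (Pfkp) subunits. Here the subunits moved apart. Pfkp was at 19.2, 17.6 and 19.2 TPM in B2, 25.2, 25.4 and 23.3 in B1 and 39.0, 37.2 and 36.3 in B2B1, with no overlap of groups. Its log2 fold change was 0.38 ± 0.069 in B1 and 0.97 ± 0.069 in B2B1 against B2, and 0.59 ± 0.069 in B2B1 against B1 (limma adjusted p = 0.00158, 4.46e-06 and 0.000759). Pfkl went the other way, at 39.3, 36.6 and 41.0 TPM in B2, 29.4, 33.6 and 28.9 in B1 and 26.3, 27.0 and 24.6 in B2B1. It was called lower in B1 (−0.34 ± 0.080, limma adjusted p = 0.00645) and in B2B1 against B2 (−0.57 ± 0.080, adjusted p = 0.000258), while B2B1 against B1 did not pass (−0.23 ± 0.080, adjusted p = 0.0768). Pfkm, the least abundant subunit, averaged 6.32 ± 0.894 TPM in B2 (SD, n = 3 here and below), 4.24 ± 0.628 in B1 and 2.95 ± 0.382 in B2B1, and was called lower in both comparisons with B2 (−0.48 and −0.89). With median-of-ratios scaling the B1 calls of Pfkl (−0.18) and Pfkm (−0.35) were lost, and that of Pfkm also without B2 library 2 or B1 library 3 (−0.38 each).

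The bifunctional Pfkfb enzymes make and remove fructose 2,6-bisphosphate, the strongest activator of phosphofructokinase. Pfkfb3 was at 31.4, 30.2 and 32.4 TPM in B2, 40.2, 53.1 and 44.8 in B1 and 51.4, 47.8 and 66.3 in B2B1. It was called higher in B1 and B2B1 against B2 (log2 fold changes 0.53 ± 0.13 and 0.78 ± 0.13, limma adjusted p = 0.00841 and 0.000767), and B2B1 overlapped B1. Pfkfb4 separated the peritoneal groups. It was at 45.6, 31.9 and 40.2 TPM in B1 but at 22.0, 23.1 and 23.4 in B2 and 18.1, 23.4 and 22.5 in B2B1. Its log2 fold change was 0.74 ± 0.14 in B1 against B2 and −0.84 ± 0.14 in B2B1 against B1 (limma adjusted p = 0.0017 and 0.00364), and B2B1 against B2 did not pass (−0.10 ± 0.14, adjusted p = 0.532). Pfkfb2, the heart-type isozyme, was called lower in both peritoneal groups, at 23.8 ± 0.410 TPM in B2, 18.2 ± 1.07 in B1 and 17.2 ± 0.506 in B2B1.

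Aldolase cleaves fructose 1,6-bisphosphate, and triose phosphate isomerase, encoded by Tpi1, equilibrates the products. Tpi1 lies on chromosome 6 from 124810586 to 124814296 (GRCm38). It was at 60.6, 67.1 and 66.7 TPM in B2, 143, 163 and 163 in B1 and 204, 206 and 169.7 in B2B1. The mean was 2.42-fold that of B2 in B1 and 2.98-fold in B2B1. Log2 fold changes were 1.26 ± 0.091 and 1.56 ± 0.091 (limma adjusted p = 6.66e-06 and 1.44e-06). Aldoa, the ubiquitous aldolase, was at 354, 343 and 345 TPM in B2, 440.5, 361 and 443 in B1 and 513, 493 and 481 in B2B1. It was called in B1 against B2 (0.25 ± 0.080, adjusted p = 0.0266) and in B2B1 against B2 (0.51 ± 0.080, limma adjusted p = 0.000476). The Aldoa call in B1 was lost without any one of the 3 B2 libraries (0.24 to 0.26) or without B1 library 1 or 3 (0.20 each). Aldoc, the brain aldolase, was listed at 0 in 6 libraries and reached 2.43 TPM in B2 library 2.

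Downstream of the trioses, Gapdh makes NADH, Pgk1 makes ATP, and Pgam1 and the enolases lead to the substrate of pyruvate kinase. Gapdh was at 236, 229 and 235 TPM in B2, 338, 396 and 304 in B1 and 466, 483 and 467 in B2B1. The groups did not overlap, and Gapdh was called in all 3 comparisons (log2 fold changes 0.56 ± 0.086, 1.01 ± 0.086 and, for B2B1 against B1, 0.45 ± 0.086; limma adjusted p = 0.000636, 1.24e-05 and 0.00791). Gapdh is a common reference gene, and here its mean in B2B1 was 2.02-fold that in B2. Pgk1 was at 119.9, 125 and 127 TPM in B2, 123, 146 and 119.6 in B1 and 189, 187 and 165 in B2B1. B1 and B2 overlapped for Pgk1, and B2B1 was called above both (0.53 ± 0.087 and 0.48 ± 0.087, limma adjusted p = 0.000638 and 0.00666). The call against B1 was lost with the Xist covariate (0.41). Pgam1 averaged 90.6 ± 1.42 TPM in B2, 123 ± 17.8 in B1 and 148 ± 3.37 in B2B1, and was called in both comparisons with B2 (0.43 and 0.71). B2B1 against B1 did not pass for Pgam1 (0.28, adjusted p = 0.0625), although it was called without B1 library 2 (0.39).

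Of the enolases, Eno1, the ubiquitous isozyme, carried nearly all of the transcript. It was at 328, 316 and 338 TPM in B2, 370.1, 479 and 277 in B1 and 424, 460.0 and 383 in B2B1. The B1 libraries spanned the values of both other groups, and no comparison passed for Eno1 (log2 fold changes 0.16, 0.36 and 0.20, limma adjusted p = 0.44, 0.0847 and 0.433). Eno1 was called in B1 against B2 without B1 library 3 (0.36). Its B2B1 libraries all lay above those of B2. That comparison was called in the fit on the 6 libraries of B2B1 and B2 (0.36), with library weights (0.34) and with median-of-ratios scaling (0.59). The same held without B1 library 2 or 3 (0.36 each), and without B2B1 library 1 together with B1 library 2 (0.36). Eno2, the neuronal enolase, lies on chromosome 6 from 124760053 to 124769673. It was listed at 0, 0 and 0.255 TPM in B2, and stood at 2.84, 1.59 and 3.27 in B1 and 5.10, 5.74 and 3.74 in B2B1. Both peritoneal groups lay above B2 without overlap (log2 fold changes 1.69 ± 0.22 and 2.43 ± 0.22, limma adjusted p = 0.000243 and 1.88e-05), at levels far under those of Eno1. Eno2 averaged below 1 TPM in B2 and was tested only through its higher level in those groups, so a difference was built in. With a pseudocount of 0.1 in place of 1 the Eno2 values were 4.07 and 5.0, so its fold change depends on that choice. Eno3, the muscle enolase, averaged 15.7 ± 0.992 TPM in B2, 13.1 ± 1.83 in B1 and 9.63 ± 3.93 in B2B1. It was called lower in B2B1 against B2 (−0.72, adjusted p = 0.029), but not without B2B1 library 3 (−0.41) or any one B2 library (−0.75 to −0.67), nor with quantile normalization (−0.58), median-of-ratios scaling (−0.51) or no filter on low genes (−0.72).

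Pkm, pyruvate kinase, was at 240, 236 and 247 TPM in B2, 292, 341 and 296 in B1 and 334, 380.4 and 358 in B2B1. It was called in both comparisons with B2 (log2 fold changes 0.36 ± 0.074 and 0.56 ± 0.074, limma adjusted p = 0.00341 and 0.000174), and the table does not separate its M1 and M2 isoforms. Pkm in B2B1 against B1 did not pass (0.21, adjusted p = 0.0843) but was called without B1 library 2 (0.28). Ldha, the lactate dehydrogenase subunit that favours lactate formation, was at 223, 218 and 218 TPM in B2 and 325, 344 and 326 in B2B1. In B1 it was at 217, 289 and 226 TPM, with libraries 1 and 3 beside B2 and library 2 between the groups. Ldha was called in B2B1 against B2 (0.59 ± 0.097) and against B1 (0.45 ± 0.097; limma adjusted p = 0.000639 and 0.0136). It was not called in B1 against B2 (0.14 ± 0.097, adjusted p = 0.249), although median-of-ratios scaling (0.30) and quantile normalization (0.27) made it a call. The Ldha call against B1 was lost in the 6-library fit (0.45) and with the Xist covariate (0.44). Ldhb, the heart-type subunit, was listed at 0 in all 9 libraries, as were 5668 symbols of the table, and nothing is read from that. Aldoa, Tpi1 and Eno2 also passed for B2B1 against B1, narrowly (0.26, 0.30 and 0.73; limma adjusted p = 0.0498, 0.0494 and 0.049). Those 3 calls were each lost under 16 of the 19 or 20 alternatives tried, and without B1 library 2 the value of Aldoa was 0.17.

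The oxidative branch of the pentose phosphate pathway begins with glucose 6-phosphate dehydrogenase, encoded by the X-linked G6pdx. G6pdx was at 31.1, 26.5 and 27.9 TPM in B2, 37.0, 37.9 and 38.1 in B1 and 39.0, 47.1 and 45.4 in B2B1. It was called in both comparisons with B2 (log2 fold changes 0.39 ± 0.088 and 0.60 ± 0.088, limma adjusted p = 0.00478 and 0.000313). Pgls, the lactonase that follows, was at 142, 152 and 142 TPM in B2, 167, 169 and 158 in B1 and 201, 228 and 205 in B2B1. B2B1 was called above B2 (0.54 ± 0.064, limma adjusted p = 9.33e-05) and above B1 (0.36 ± 0.064, adjusted p = 0.00586), the latter not with the Xist covariate (0.30). Pgls was called in B1 against B2 as well (0.18 ± 0.064, adjusted p = 0.0395), but not without B2 library 1 or 3 (0.16 each), B1 library 1 or 2 (0.17 and 0.16), B2B1 library 3 (0.18), or B2B1 library 1 together with B1 library 2 (0.16). Pgd, which makes NADPH in turn, did not follow its neighbours. It averaged 66.7 ± 1.65 TPM in B2, 54.9 ± 8.27 in B1 and 63.7 ± 2.16 in B2B1, and was called lower in B1 only in a fit that 9 of 20 alternatives ended (−0.29, limma adjusted p = 0.0314). After quantile normalization the value was −0.15 and after median-of-ratios scaling −0.13. It was −0.29 in the 6-library fit and −0.28 with the Xist covariate, and −0.30 to −0.22 without any one B2 library or B1 library 1 or 3. Without B1 library 2 Pgd stayed a call (−0.41).

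In the non-oxidative branch, Taldo1 and Rpia moved in opposite directions. Taldo1, transaldolase, was at 235, 243 and 239 TPM in B2, 159, 159.6 and 152 in B1 and 159.7, 166 and 168 in B2B1. Both peritoneal groups lay below B2 without overlap (log2 fold changes −0.61 ± 0.048 and −0.53 ± 0.048, limma adjusted p = 1.18e-05 and 1.74e-05). Rpia, which makes ribose 5-phosphate, was at 55.9, 58.7 and 57.0 TPM in B2, 74.6, 85.8 and 63.9 in B1 and 104, 99.6 and 97.5 in B2B1. Its 3 groups did not overlap, and each comparison passed (0.37 ± 0.096, 0.80 ± 0.096 and 0.43 ± 0.096, limma adjusted p = 0.0101, 9.72e-05 and 0.0158), the last not in the 6-library fit (0.43) or with the Xist covariate (0.39). Tkt, transketolase, averaged 101 ± 4.93 TPM in B2, 104 ± 16.2 in B1 and 121 ± 13.8 in B2B1, and passed in no comparison (limma adjusted p = 0.801, 0.0838 and 0.228). It was called in B2B1 against B2 without B2B1 library 3 (0.35) or B1 library 2 (0.26), and with median-of-ratios scaling (0.48) or quantile normalization (0.38), and in B2B1 against B1 without B1 library 2 (0.34). Rpe, the epimerase, averaged 22.8 to 26.2 TPM in the 3 groups and passed in none.

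Among the genes that set how mitochondria use pyruvate, the kinases of pyruvate dehydrogenase showed the clearest exchange. Pdk1, a kinase induced by hypoxia, lies on chromosome 2 from 71873224 to 71903858. It was at 29.3, 33.7 and 29.9 TPM in B2, 9.78, 12.8 and 7.82 in B1 and 10.4, 11.4 and 8.20 in B2B1. Pdk1 thus stood lower in both peritoneal groups by like amounts (log2 fold changes −1.54 ± 0.17 and −1.55 ± 0.17, limma adjusted p = 8.5e-05 and 5.87e-05). The difference between B2B1 and B1 had a 95% interval of −0.39 to 0.38. Pdk3, the X-linked isozyme (93764607 to 93832201), was at 18.1, 15.8 and 17.3 TPM in B2, 25.6, 28.7 and 25.8 in B1 and 37.1, 40.6 and 37.5 in B2B1. It was called higher in B1 and B2B1 against B2 and in B2B1 against B1 (0.62 ± 0.079, 1.13 ± 0.079 and 0.51 ± 0.079, limma adjusted p = 0.000207, 4.02e-06 and 0.00302). With the Xist covariate the last call remained. Pdha1, the catalytic alpha subunit that these kinases phosphorylate, averaged 58.3 ± 1.78 TPM in B2, 51.0 ± 2.18 in B1 and 55.3 ± 2.85 in B2B1. Its call in B1 (−0.19, adjusted p = 0.0298) was lost without B2 library 1 or 2 or B1 library 2 or 3 (−0.18 to −0.17), with the Xist covariate (−0.17) and with either rescaling (−0.034 with median-of-ratios factors, −0.064 with quantiles).

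Of the 3 glycogen enzymes among the members, 1 was called. Pygl, the liver-type glycogen phosphorylase that releases glucose 1-phosphate, lies on chromosome 12 from 70190811 to 70231488. It was at 7.71, 8.10 and 6.77 TPM in B2 and 11.1, 7.46 and 10.2 in B1, but at 1.51, 0.29 and 0.386 in B2B1. B2B1 lay below both other groups without overlap (log2 fold changes −2.37 ± 0.25 against B2 and −2.66 ± 0.25 against B1, limma adjusted p = 4.66e-05 and 0.000279). Both calls held under every alternative that was run. Pygl averaged below 1 TPM in B2B1 and was tested only through its levels in B2 and B1, so here too a difference was built in. B1 against B2 did not pass for Pygl (0.30 ± 0.25, adjusted p = 0.343), except when B2B1 library 1 was left out together with B1 library 2 (0.45). Pygb, the brain-type phosphorylase, averaged 41.6 ± 0.991, 40.3 ± 3.51 and 41.1 ± 2.84 TPM in B2, B1 and B2B1 and passed in none. Gbe1, the glycogen branching enzyme, averaged 8.19 ± 3.02, 9.15 ± 0.671 and 10.9 ± 0.852 TPM. Gbe1 passed in none either, its B2 library 1 standing at 4.72 against 10.2 and 9.66 TPM in libraries 2 and 3, and was called in B2B1 against B2 with median-of-ratios scaling (0.63).

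Because an isozyme's share of its step does not depend on how a library is scaled, the balance of isozymes was compared as a percentage of the summed TPM of the members of their step. With 3 libraries against 3, the exact two-sided permutation test cannot go below 0.1. Of 48 share comparisons, 33 reached that smallest value (0.145 adjusted over the 48), those in which the groups did not overlap. The TPM of single genes did not overlap for 61.7% (B1 against B2), 72.2% (B2B1 against B2) and 35.7% (B2B1 against B1) of all tested genes. Shares of the same step are tied to each other, so the 48 are not separate results. Phosphofructokinase turned from mostly Pfkl to mostly Pfkp: Pfkp made up 29.2% ± 0.66 of the step in B2, 41.4% ± 1.35 in B1 and 56.5% ± 1.14 in B2B1. Pfkl made up 60.9% ± 1.26, 51.5% ± 1.73 and 39.1% ± 0.8, and Pfkm the rest. Of the summed Pdk1 and Pdk3 transcripts, Pdk3 made up 35.6% ± 3.25 in B2, 72.7% ± 3.79 in B1 and 79.4% ± 2.3 in B2B1. Both of these balances lay in the order B2, B1, B2B1 with no overlap between any groups. Pdk2, a kinase outside the members, averaged 7.13 ± 0.793 TPM in B2, 10.1 ± 1.47 in B1 and 8.88 ± 0.644 in B2B1, near Pdk1 in both peritoneal groups, and was called higher in B1 (log2 fold change 0.44, limma adjusted p = 0.0149). With Pdk2 added to the sum, a choice made after seeing the data, Pdk3 made up 31.0% ± 2.83 in B2, 57.1% ± 3.43 in B1 and 67.1% ± 1.1 in B2B1, still without overlap. Pdk1 then made up 56.1% ± 2.94, 21.4% ± 3.23 and 17.4% ± 2.15, and B1 and B2B1 overlapped.

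Other balances did not follow that order in full. Hk2 made up 8.97% ± 0.205 of hexokinase in B2 and 17.4% ± 2.07 in B2B1. In B1 it was 7.58% and 8.19% in libraries 1 and 3 and 17.1% in library 2, so that the B1 mean lay 2.0 percentage points above B2 with library 2 and 1.08 below it without (−1.08). Among the Pfkfb genes, Pfkfb3 held 40.2% ± 0.942 in B2, 44.5% ± 6.63 in B1 and 58.6% ± 4.29 in B2B1. Pfkfb4 held 29.3% ± 0.822, 37.9% ± 6.38 and 22.8% ± 3.17, its highest share being in B1 and its lowest in B2B1. Pygl held 15.3% ± 1.12 and 19.3% ± 4.25 of its sum with Pygb in B2 and B1, and 1.67% ± 1.42 in B2B1. Eno1 held 94.2% to 97.6% of enolase in every library.

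**Figure D3:**
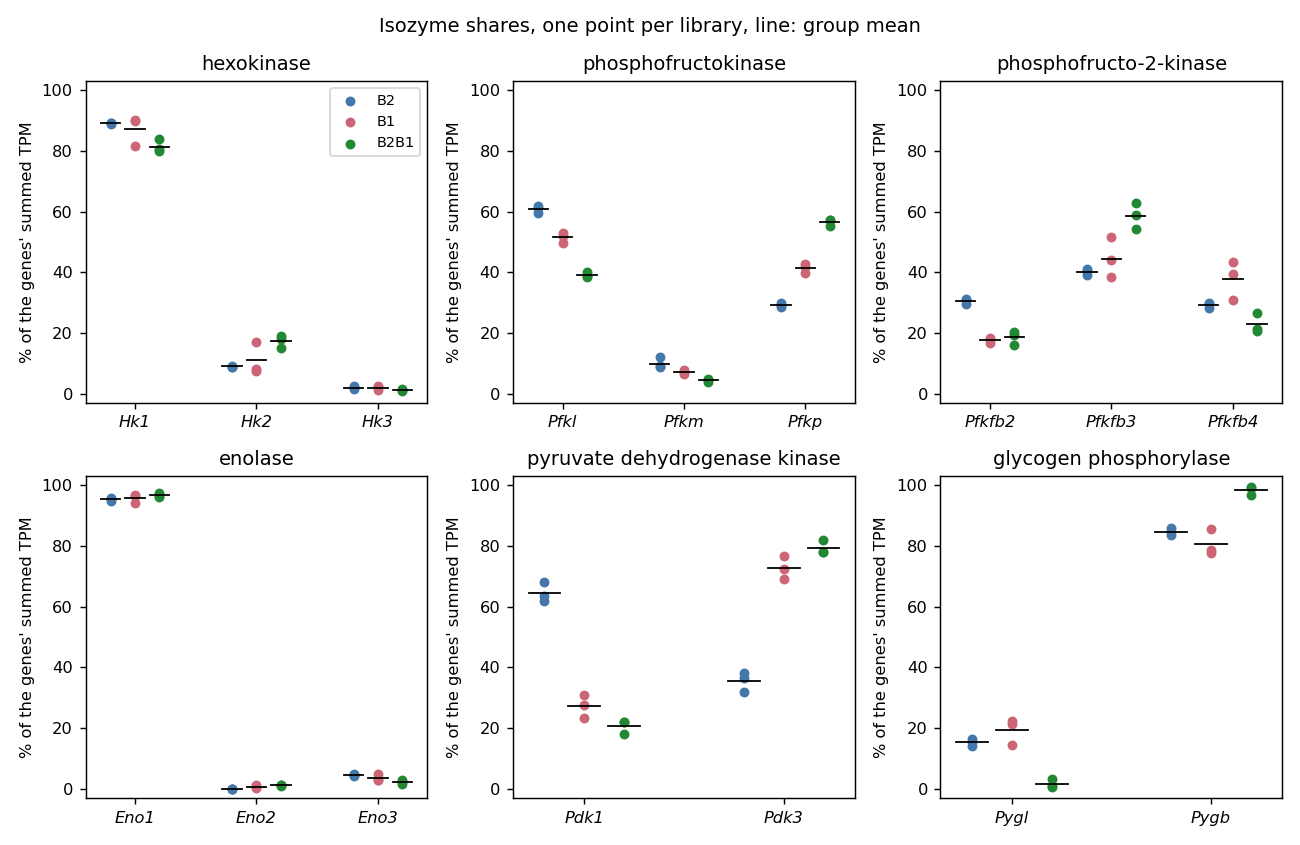
Share of each isozyme in the summed TPM of the genes shown in its panel (vertical axis, percent), one point per library and a line for the mean of each group of 3. Pfkl and Pfkp exchange the leading place between B2 (60.9% and 29.2%) and B2B1 (39.1% and 56.5%), Pdk1 and Pdk3 do so between B2 and both peritoneal groups, and 1 of 3 B1 libraries sits with B2B1 for Hk2.

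The bases just before the start of Hk1, Hk2, Pfkp, Pdk1, Pdk3 and Eno2 are printed here to show which short motifs they hold. These isozymes had shares that differed without overlap in at least 1 comparison and upstream bases outside the annotated gene. They were chosen with the motif matches known, and Pfkm, Pygb, Eno1 and Eno3, which meet the same criteria, are given by their matches only. Pfkfb3 and Pfkfb4 meet them too, with only 102 and 126 upstream bases outside the annotated gene, and those bases are not printed. Capitals mark ACGTG and GCGTG on either strand, the core that hypoxia-inducible factors bind. The sequences are RefSeq promoter windows on GRCm38.p6, read 5′ to 3′ on the gene's strand. Windows of 250 bases were used, trimmed where the GENCODE gene begins earlier. Hk1 lies at chr10:62379909-62380158, Hk2 at chr6:82774455-82774704 and Eno2 at chr6:124769674-124769923, all on the minus strand, Pfkp at chr13:6648778-6649021 on the minus strand, Pdk1 at chr2:71872974-71873223 on the plus strand and Pdk3 at chrX:93832202-93832400 on the minus strand.
Hk1: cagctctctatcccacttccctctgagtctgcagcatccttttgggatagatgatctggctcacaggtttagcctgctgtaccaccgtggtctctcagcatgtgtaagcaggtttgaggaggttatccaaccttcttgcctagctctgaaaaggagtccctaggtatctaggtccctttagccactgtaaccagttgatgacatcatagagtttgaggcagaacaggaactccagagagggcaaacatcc
Hk2: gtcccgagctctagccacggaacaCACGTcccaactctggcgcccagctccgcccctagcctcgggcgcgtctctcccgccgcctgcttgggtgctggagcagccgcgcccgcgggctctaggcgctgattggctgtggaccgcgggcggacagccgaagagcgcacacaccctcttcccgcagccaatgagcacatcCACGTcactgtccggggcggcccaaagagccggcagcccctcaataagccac
Pfkp: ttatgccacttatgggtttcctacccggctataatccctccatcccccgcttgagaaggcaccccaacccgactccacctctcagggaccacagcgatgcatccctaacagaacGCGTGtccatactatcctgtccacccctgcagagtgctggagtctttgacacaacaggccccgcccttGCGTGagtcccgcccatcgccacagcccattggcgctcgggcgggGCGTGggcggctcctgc
Pdk1: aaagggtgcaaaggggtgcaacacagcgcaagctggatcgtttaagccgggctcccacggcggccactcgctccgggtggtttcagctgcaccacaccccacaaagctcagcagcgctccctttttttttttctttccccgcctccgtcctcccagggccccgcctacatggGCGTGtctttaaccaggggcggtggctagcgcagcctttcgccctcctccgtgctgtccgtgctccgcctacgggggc
Pdk3: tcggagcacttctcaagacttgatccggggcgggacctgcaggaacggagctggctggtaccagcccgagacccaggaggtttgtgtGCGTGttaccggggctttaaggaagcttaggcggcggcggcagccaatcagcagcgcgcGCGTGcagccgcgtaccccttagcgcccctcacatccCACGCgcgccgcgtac
Eno2: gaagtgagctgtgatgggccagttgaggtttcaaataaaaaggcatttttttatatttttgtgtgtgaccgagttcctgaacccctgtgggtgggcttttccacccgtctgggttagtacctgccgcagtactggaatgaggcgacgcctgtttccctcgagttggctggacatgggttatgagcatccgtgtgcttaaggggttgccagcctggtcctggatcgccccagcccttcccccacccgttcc
The printed bases hold 2 matches for Hk2, 3 for Pfkp, 1 for Pdk1 and 3 for Pdk3, and 0 for Hk1 and Eno2. The upstream bases of Pfkm and Pygb hold 2 each, those of Pfkm overlapping in 1 CACGTG, and those of Eno1 and Eno3 hold 1 each. For Pfkfb3 and Pfkfb4, the untrimmed 250-base window that includes their upstream bases holds 1 match each. Matches thus lie before isozymes that were higher (Hk2, Pfkp, Pdk3) and before some that were lower (Pdk1, Pfkm), and none in the printed bases of Hk1 and Eno2, which were higher in B2B1 than in B2. A further Hk1 window, inside the annotated gene, holds 3. All 35 members matched the promoter table, with 51 windows. Either motif was found in 78.4% of these and in 38.6% of all 32851 windows of the table, without matching for base composition. CACGTG, the E-box that Myc binds and that contains ACGTG, was found in 7.84% of the members' windows and in 6.02% of all. Tpi1 and Eno2, with the highest fold changes in B1, had neither ACGTG nor GCGTG in their windows.

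Summed by enzyme step, transcripts of glycolysis from hexokinase to lactate dehydrogenase came to 1998, 1959 and 2021 TPM in B2, 2443, 2734 and 2336 in B1 and 3072, 3172 and 2912 in B2B1. The groups did not overlap, and the means stood at 1.26-fold (B1) and 1.53-fold (B2B1) that of B2. The increase was uneven along the pathway. The triose phosphate isomerase step was at 2.42-fold and 2.98-fold in B1 and B2B1, GAPDH at 1.48-fold and 2.02-fold, and hexokinase at 1.34-fold and 1.87-fold. The hexokinase sum, 33.9 TPM in B2, 45.5 in B1 and 63.5 in B2B1, leaves out the ADP-dependent glucokinase Adpgk. Adpgk, outside the members, went the other way, at 69.0, 35.7 and 35.6 TPM. Phosphofructokinase as a sum stood at 63.9 ± 2.37 TPM in B2, 59.5 ± 3.90 in B1 and 66.4 ± 2.59 in B2B1, with all groups overlapping. Its log2 ratio of B1 to B2 changed sign with median-of-ratios scaling (−0.10 to 0.052). The ratio of B2B1 to B2 rose from 0.055 to 0.28 with that scaling, so whether this step was level in B2B1 depends on the scaling. The oxidative pentose phosphate branch summed to 240.4 ± 3.22, 257 ± 12.7 and 319 ± 17.1 TPM in B2, B1 and B2B1. The non-oxidative branch summed to 421 ± 8.66, 358 ± 31.4 and 412 ± 13.2 TPM, with Taldo1 the largest part in each group. For B2B1 against B2 the direction of this last sum turned with median-of-ratios scaling (log2 ratio −0.032 to 0.2).

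**Figure D4:**
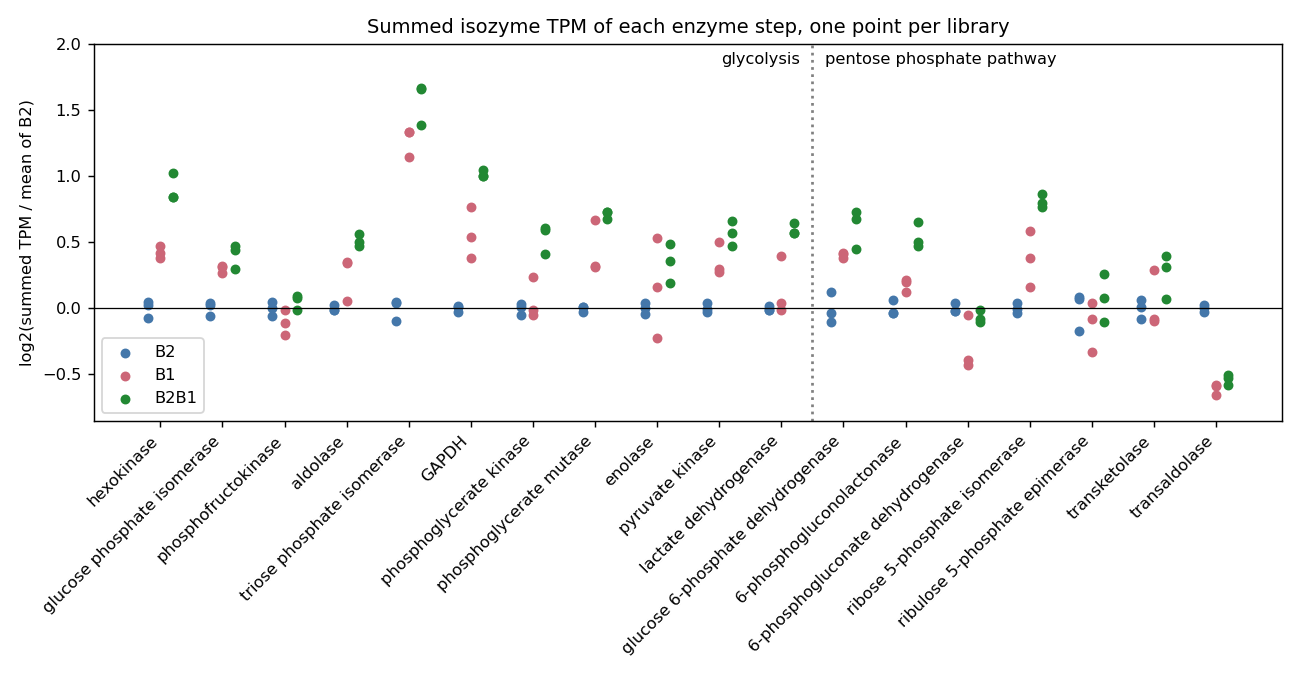
Summed TPM of the isozymes of each enzyme step relative to the B2 mean (vertical axis, log2), one point per library, with glycolysis left and the pentose phosphate pathway right of the dotted line. Triose phosphate isomerase stands highest, and phosphofructokinase lies near 0 in all groups in these TPM, which were not rescaled. Transaldolase lies below 0 in both peritoneal groups, and the B2B1 mean lies above that of B1 at every glycolytic step.

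Other genes of the same pathways, 85 in 7 lists, were set beside the members, and 60 of them were tested. In B1 against B2, 15 were called higher and 14 lower, in B2B1 against B2 14 and 22, and in B2B1 against B1 3 and 8, with the background shares of all genes as given above. Of the ribose and other pentose phosphate enzymes, 3 of 5 tested were higher in both peritoneal groups and 0 lower. Prps2, which makes the ribose precursor of nucleotides, averaged 37.9 ± 3.01 TPM in B2, 152 ± 10.2 in B1 and 88.0 ± 13.2 in B2B1. H6pd, the glucose 6-phosphate dehydrogenase of the endoplasmic reticulum, averaged 7.41 ± 1.88, 37.0 ± 10.1 and 25.0 ± 8.00 TPM. Rbks, ribokinase, was the other one. Of 8 further glycolytic isozymes, 0 were called higher and 2 lower in B1 against B2, Adpgk (an ADP-dependent glucokinase) and Ldhd (a D-lactate dehydrogenase). Both were lower in B2B1 against B2 too, with Pgam2, while Pfkfb1 was higher. Adpgk averaged 69.0 ± 1.41 TPM in B2, 35.7 ± 7.01 in B1 and 35.6 ± 6.79 in B2B1.

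Of 13 other genes of glycogen metabolism, 6 were lower and 1 higher in B1 against B2, and 6 lower and 3 higher in B2B1 against B2. Gys1, glycogen synthase, averaged 17.8 ± 1.69 TPM in B2, 12.0 ± 0.778 in B1 and 9.55 ± 0.669 in B2B1. The phosphorylase kinase subunits Phka1, Phka2 and Phkg2 were lower in both, while the subunit Phkb was called higher in B1 against B2 (log2 fold change 0.27, limma adjusted p = 0.0393) and did not pass in B2B1 (0.18, adjusted p = 0.121). Pgm1, a phosphoglucomutase, was called higher in B2B1 than in both other groups, at 11.5 ± 0.449 TPM in B2, 12.0 ± 0.536 in B1 and 24.9 ± 2.88 in B2B1. The muscle phosphorylase Pygm, like Pygl, was lower in B2B1 than in both other groups, at 1.48 ± 0.474 TPM against 3.94 ± 0.291 in B2 and 4.89 ± 0.323 in B1. Of 10 other genes around pyruvate dehydrogenase, 2 were higher (Pdk2 and Mpc2) and 2 lower (Pdp2 and Mpc1) in B1 against B2, and 1 was higher (Mpc2) and 4 lower (Pdhb, Pdp2, Pdpr and Mpc1) in B2B1 against B2. Mpc1 and Mpc2, the subunits of the mitochondrial pyruvate carrier, thus differed from B2 in opposite directions in both peritoneal groups. Of 3 tested genes of gluconeogenesis, Pck2 and G6pc3 were higher in B1 against B2, G6pc3 was higher in B2B1 against B2, and Pck2 was lower in B2B1 against B1.

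Of 8 tested transporters of glucose and lactate, 4 were higher and 3 lower in B1 against B2, 3 and 4 in B2B1 against B2, and 1 and 2 in B2B1 against B1. The glucose transporters Slc2a3, Slc2a6 and Slc2a8 were lower in both peritoneal groups. Slc2a3 averaged 33.0 ± 4.20 TPM in B2, 9.90 ± 1.23 in B1 and 9.13 ± 1.55 in B2B1 (log2 fold changes −1.64 and −1.75 against B2, limma adjusted p = 1.99e-05 and 9.37e-06). Slc2a6 averaged 19.7 ± 1.39, 3.19 ± 1.12 and 4.31 ± 1.15 TPM (−2.34 and −1.99), and Slc2a8 averaged 8.63 ± 1.19, 4.12 ± 1.39 and 3.03 ± 0.431 TPM (−0.94 and −1.25). Slc2a1, the main glucose transporter of lymphocytes, averaged 55.4 ± 2.40 TPM in B2, 70.6 ± 5.18 in B1 and 37.8 ± 7.18 in B2B1, and was called higher in B1 and lower in B2B1 against B2. The lactate transporters Slc16a1 and Slc16a3 were called higher in both peritoneal groups, and Slc16a7 in B1. Bsg, the chaperone of lactate transporters, was called higher in B2B1 than in both other groups, at 112 ± 7.29 TPM in B2, 124 ± 6.21 in B1 and 188 ± 13.2 in B2B1.

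Of 13 tested regulators of glycolysis, 3 were higher (Myc, Txnip and Prkaa1) and 1 lower (Stk11) in B1 against B2. In B2B1 against B2, 2 were higher (Myc and Hif1a) and 5 lower (Egln1, Egln2, Mlxip, Mlx and Stk11), and in B2B1 against B1 0 were higher and 1 lower (Mlxip). Myc averaged 67.1 ± 16.0 TPM in B2, 196 ± 46.2 in B1 and 116 ± 26.5 in B2B1 (log2 fold changes 1.53 and 0.79 against B2, limma adjusted p = 0.000613 and 0.0163). Mlxip, a glucose-sensing transcription factor that pairs with Mlx, averaged 126.9 ± 25.6, 115 ± 11.1 and 71.5 ± 18.7 TPM. It was lower in B2B1 against B2 (−0.83, limma adjusted p = 0.00509) and against B1 (−0.70, adjusted p = 0.0366). Hif1a, the hypoxia-inducible factor, was called in B2B1 against B2 although the libraries overlapped (41.8 ± 8.06 against 32.0 ± 3.94 TPM, log2 fold change 0.37, limma adjusted p = 0.0477) and not in B1 (0.20, adjusted p = 0.262). Egln1 and Egln2, prolyl hydroxylases that mark hypoxia-inducible factors for breakdown, were at −0.23 and −0.61 in B2B1 against B2.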

How the data were processed

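The study measured polyA RNA of B cells in 9 libraries. Labels' protocols name an RNeasy MICRO extraction and TruSeq RNA v2 libraries. The submitters' processing notes list CASAVA 1.8.2, kallisto and mm10, and no source read here says which transcripts were indexed or how they were summed. The table deposited by the authors holds TPM for 22178 gene symbols, 0 of them duplicated, and 0 of 36 library pairs were identical. A second deposited table, a gene signature, holds no member and was not used.

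The test was limma 3.58.1 in R 4.3.3 (trend, 1 model over all libraries, no covariate) on log2(TPM + 1), for 11099 genes averaging at least 1 TPM. P-values are two-sided and Benjamini-Hochberg adjusted within a comparison over all tested genes. TPM allow no interval for counting error. All members are given, with values by library for those called at an absolute log2 fold change of at least 1, for the leading isozyme of a step and for those whose shares are described, and other members of interest were added after their values were seen. Outside the members, at most 3 genes of a list with the smallest adjusted p, or those that make up a small count, were to be named, and genes named beyond that were picked with their values in view. The members, the lists and the alternatives were chosen with earlier results of these data known. Coordinates are from GENCODE M21 (GRCm38, the same assembly as mm10) and promoters from RefSeq. The kit does not mark strand, and 11 members overlap a gene of the table on the opposite strand and 2 on the same strand. Gapdh, Ldha, Pgk1, Pgam1, Eno1, Tpi1, Aldoa and Pkm have processed pseudogenes that could share reads, so their values carry that uncertainty. The alternatives covered pseudocounts, filters, rescaling, quantile normalization, library weights, single libraries, a replicate block, a covariate from Xist and Ddx3y, and fits on 6 libraries, and adding Pdk2 to the kinase sum was tried after seeing the data. Tables and plots were made with Python 3.11.15, pandas 2.3.3 and matplotlib 3.10.9.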

Additional observations from a re-analysis of the deposited data

How the results depend on the processing

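Over all alternatives, 1748 of 1914 log2 fold changes of tested members kept their direction and their side of the threshold, 99 lost the call, 30 gained it and 37 changed sign, none of them called before the change. The count of lower members in B1 against B2 (7) was 3 with median-of-ratios scaling and 4 to 7 with 1 library left out, with 4 without B2 library 2 or B1 library 3. The count of higher members in B2B1 against B1 (12) was 6 in the 6-library fit, 4 with the Xist covariate and 8 to 13 with 1 library left out. Other counts of members and of other pathway genes stayed within 1.5 times. With the replicate block 15, 18 and 9 members were higher and 7, 7 and 2 lower in B1 against B2, B2B1 against B2 and B2B1 against B1. Of all tested genes, 17.7%, 20.6% and 6.04% were then higher and 32.2%, 41.2% and 9.61% lower. Libraries with equal numbers did not deviate together (correlations −0.058 to 0.123), so the numbers were not taken to pair them. The block kept the call and direction of 92 of 96 fold changes, and Tkt was gained in B2B1 against B2 (0.26). With median-of-ratios scaling the log2 ratios of summed steps, B1 against B2 then B2B1 against B2, were 0.58 and 1.13 for hexokinase, 0.052 and 0.28 for phosphofructokinase, 0.49 and 0.84 for all of glycolysis, 0.25 and 0.64 for the oxidative and −0.079 and 0.20 for the non-oxidative branch.

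Uncalled values that changed sign were, in B1 against B2, Rpe (0.037 with median-of-ratios scaling, 0.016 with quantile normalization), Pygb (0.11 and 0.091) and Tkt (−0.024 with library weights), and, on dropping B2B1 library 1 together with B1 library 2, Pgk1 (−0.033), Eno1 (−0.030) and Tkt (−0.085). In B2B1 against B2 they were Pfkfb4 (0.12 with median-of-ratios scaling, 0.076 with quantile normalization, 0.0060 on dropping both libraries), Pgd (0.16 and 0.10), Pdha1 (0.15 and 0.10), Pygb (0.21 and 0.18) and Rpe (−0.0086 without both). In the first of these scalings Pdha1 and Pygb were called. In B2B1 against B1 they were Pdk1 (0.061, 0.048, 0.13 without both and 0.045 with library weights) and Pygb (−0.00031 with the Xist covariate). With single libraries left out, B1 against B2 ranged from −0.033 to 0.11 for Pgk1, −0.030 to 0.36 for Eno1, −0.085 to 0.10 for Tkt and −0.11 to 0.38 for Gbe1. B2B1 against B2 ranged from −0.17 to 0.0060 for Pfkfb4, −0.0086 to 0.17 for Rpe and −0.071 to 0.021 for Pygb, and B2B1 against B1 from −1.55e-05 to 0.39 for Eno1, −0.16 to 0.16 for Pdk1 and −0.024 to 0.098 for Pygb. Share differences of B1 from B2 ranged from −3.41 to 0.82 percentage points for Hk1, −1.08 to 3.69 for Hk2, −0.28 to 0.27 for Hk3 and −0.11 to 1.19 for Eno1. The cause was not tested. Depth is unknown, so how far it limits the low members Hk3, Aldoc, Eno2 and Pygl cannot be given.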

Other observations

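Tpi1 and Eno2, the members with the highest fold changes in B1, are near neighbours on chromosome 6 of GRCm38, with 40912 bases between them. This was noticed after the values were seen, and no list holds their neighbours. Within 25000 bases on either side, Gnb3, a G protein beta subunit, stood at 0.168 ± 0.0542 TPM in B2, 159 ± 64.1 in B1 and 91.2 ± 40.8 in B2B1, with no overlap of B2 with the peritoneal groups. Usp5, a deubiquitinase next to Tpi1, was at 62.7 ± 0.619, 61.8 ± 5.81 and 63.9 ± 2.56 TPM, all groups overlapping. Atn1 lay higher in both peritoneal groups, at 16.5 ± 0.809, 20.9 ± 3.42 and 18.2 ± 0.212 TPM in B2, B1 and B2B1, and Cdca3 lay higher than B2 in B2B1 and overlapped it in B1. Ptpn6, the phosphatase SHP-1, and Grcc10 lay lower in both peritoneal groups without overlap, Ptpn6 at 713 ± 34.7 TPM in B2, 401 ± 41.1 in B1 and 358 ± 42.6 in B2B1. Spsb2, which overlaps the end of Tpi1 on the opposite strand, was at 9.62 ± 1.47, 11.2 ± 5.50 and 13.0 ± 2.37 TPM, all groups overlapping.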
